A study of Mus musculus with 8 samples.

Results

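DDX5 eCLIPseq peaks were examined on 32 genes that encode splicing regulators, 12 genes of SR proteins and 20 genes of heterogeneous nuclear ribonucleoproteins (hnRNPs). A peak was taken as a member when it overlapped one of these genes on the gene's strand in the GENCODE M21 annotation of the mouse genome GRCm38. The deposited lists held 31 such peaks of 1278 in the small intestine, 173 of 16455 in the colon list named mAb and 115 of 9146 in the colon list named rAb. All 32 genes had a peak in at least 1 list, among 6582 genes with a peak in any list.

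SR proteins carry RNA recognition motifs and a domain rich in arginine and serine, and are known as activators of exons to which they bind. Many hnRNPs coat nascent RNA and are known as repressors of exons, although members of both groups can act either way depending on where they bind. Genes of both groups are known for controlling their own output through retained introns and through exons whose inclusion sends the transcript to nonsense-mediated decay. DDX5 is a DEAD-box RNA helicase that is found with the spliceosome and with several hnRNPs.

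The series used eCLIPseq, in which cells are irradiated with UV light, the RNA is trimmed with RNase, a protein is immunoprecipitated (IP) with the RNA fragments cross-linked to it, and these are sequenced beside a size-matched input that skipped the IP. All 8 samples were intestinal epithelial cells (IECs) of C57BL/6 mice collected by EDTA fractionation. The small intestine group came from wild-type females aged 8 weeks, with 2 CLIP and 2 input samples that the authors merged into 1 list. The colon had 1 CLIP and 1 input sample for mAb and 1 of each for rAb. The genotype label of the colon samples reads wild type, whereas their growth protocol names Apc fl/+ CDX2Cre mice at 120 days of age, so these cells may carry a conditional Apc allele and a Cre driven by the CDX2 promoter. The study's methods describe wild-type females for eCLIPseq, as the genotype label does, at an age below 120 days. For the colon, the study names 2 independent wild-type mice. All CLIP samples list 1 catalogue number for the antibody, and how the mAb and rAb samples differ was not given in the sources used here. Tissue, sequencing protocol, selection of peaks and, if the growth protocol holds, age and genotype changed together between the small intestine and the colon and cannot be told apart.

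Each peak carries a log2 fold, the depth-normalised IP reads over input reads, and a −log10 p of the same reads. A peak above 3 on both scales is called a site, after the cutoff of the study. The small intestine list held sites only, so 100% of its peaks pass by selection, whereas the colon lists held every called peak. No values per replicate were used, so the comparisons describe lists and carry no test across samples. Intervals are exact 95% intervals over peaks or reads and cover counting error only, and peaks of 1 gene are not independent. The number of peaks called on a gene also moves with the amount of its RNA, which was not measured here.

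The lists were checked against markers of the labelled cells. Of 7 epithelial marker genes, 4 had a peak in the small intestine and 6 in each colon list. The adhesion gene Epcam had 8 peaks in the small intestine, 17 mAb peaks and 13 rAb peaks. The enterocyte genes Apoa1, Apoa4, Apob and Fabp2 had peaks in the small intestine only. Of 4 colonocyte genes, 4 had a mAb peak and 1, Krt20, had an rAb peak. Krt20 also had 10 peaks in the small intestine, up to a log2 fold of 5.11, against 3 mAb peaks and 1 rAb peak. It thus did not mark the colon in these lists. Of 4 mesenchymal genes, 4 had mAb peaks, 80 in all, and 3 had rAb peaks, 64 in all, most of them on the collagen genes Col1a1 and Col3a1. None had a peak in the small intestine, whose list holds sites only. At that cutoff none of these genes had a site in either colon list, so the lists do not show a difference in mesenchymal RNA between the tissues. Of 4 leukocyte genes, only Lyz2 had peaks, 4 for mAb and 5 for rAb. How much of the RNA on the 32 genes came from mesenchymal cells in either tissue was not tested.

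The sequences under the sites that carry the results are given as the sense strand from 5′ to 3′, read from GRCm38, with runs of at least 4 G in capitals. The intron sites come first, because the comparison of introns with exons and of the lists with each other rests on them.
Hnrnpa3 intron 1, small intestine, chr2:75659719-75659774 (+): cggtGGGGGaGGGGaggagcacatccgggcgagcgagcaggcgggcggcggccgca
Hnrnpa3 intron 1, colon mAb site, chr2:75659502-75659566 (+): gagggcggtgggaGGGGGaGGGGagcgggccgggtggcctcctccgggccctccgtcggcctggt
Hnrnpa2b1 intron 1, small intestine, chr6:51469401-51469452 (−): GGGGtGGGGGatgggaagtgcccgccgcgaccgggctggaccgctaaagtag
Hnrnpu intron 1, small intestine, chr1:178336677-178336746 (−): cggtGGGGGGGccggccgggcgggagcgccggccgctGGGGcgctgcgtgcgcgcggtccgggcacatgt
Hnrnpab intron 2, small intestine, chr11:51606220-51606290 (−): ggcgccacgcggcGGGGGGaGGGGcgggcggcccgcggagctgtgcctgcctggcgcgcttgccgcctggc
Hnrnpf intron 1, small intestine, chr6:117907226-117907319 (+): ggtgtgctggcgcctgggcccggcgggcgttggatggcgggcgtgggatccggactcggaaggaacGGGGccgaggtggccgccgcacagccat
Srsf6 intron 2, small intestine, chr2:162932234-162932285 (+): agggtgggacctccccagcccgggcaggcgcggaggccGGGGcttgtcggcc
Srsf5 intron 1, small intestine, chr12:80946356-80946422 (+): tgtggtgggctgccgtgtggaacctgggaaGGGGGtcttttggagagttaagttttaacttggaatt
Srsf5 intron 5, small intestine, chr12:80948188-80948230 (+): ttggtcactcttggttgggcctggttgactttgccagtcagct
The coding sequences follow, with the highest coding sites of Hnrnpa3 and Hnrnpa2b1 and the colon rAb site.
Hnrnpa3 exon 7, small intestine, chr2:75662883-75662927 (+): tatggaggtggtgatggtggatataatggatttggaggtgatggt
Hnrnpa2b1 exon 8, small intestine, chr6:51464486-51464548 (−): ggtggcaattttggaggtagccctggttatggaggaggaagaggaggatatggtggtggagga
Srsf10 exon 3, colon rAb site, chr4:135861748-135861835 (+): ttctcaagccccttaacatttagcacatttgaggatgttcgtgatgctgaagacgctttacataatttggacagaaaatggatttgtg
Of the intron sequences, only that of Srsf5 intron 5 held no run of 4 G. None of the 3 coding sequences held such a run, but these are examples. Over all small intestine member sites outside UTRs, 17 of 21 in introns or retained introns and 4 of 9 coding sites held one. The 4 intron sites without one were on Srsf5. These shares were not taken over all sites of the list, so they are no trait of the members.

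In the small intestine, 10 of the 32 genes had a site, 2 SR genes with 8 sites and 8 hnRNP genes with 23. All 32 genes also had a called mAb peak, and among all genes with such a peak 7.43% had a site in the small intestine. For mAb, 1 of 173 member peaks was a site (0.578%, 0.0146 to 3.18%), beside 1.22% of all called peaks. This was 1 of 32 genes, beside 2.64% of all genes with a called peak there. For rAb, 1 of 115 member peaks was a site (0.870%, 0.0220 to 4.75%), beside 1.99% of all called peaks, and this was 1 of 29 genes with a peak, beside 3.17%. The shares of the members in the colon were thus near or below those of the whole lists and are no result about the members.

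**Figure D1:**
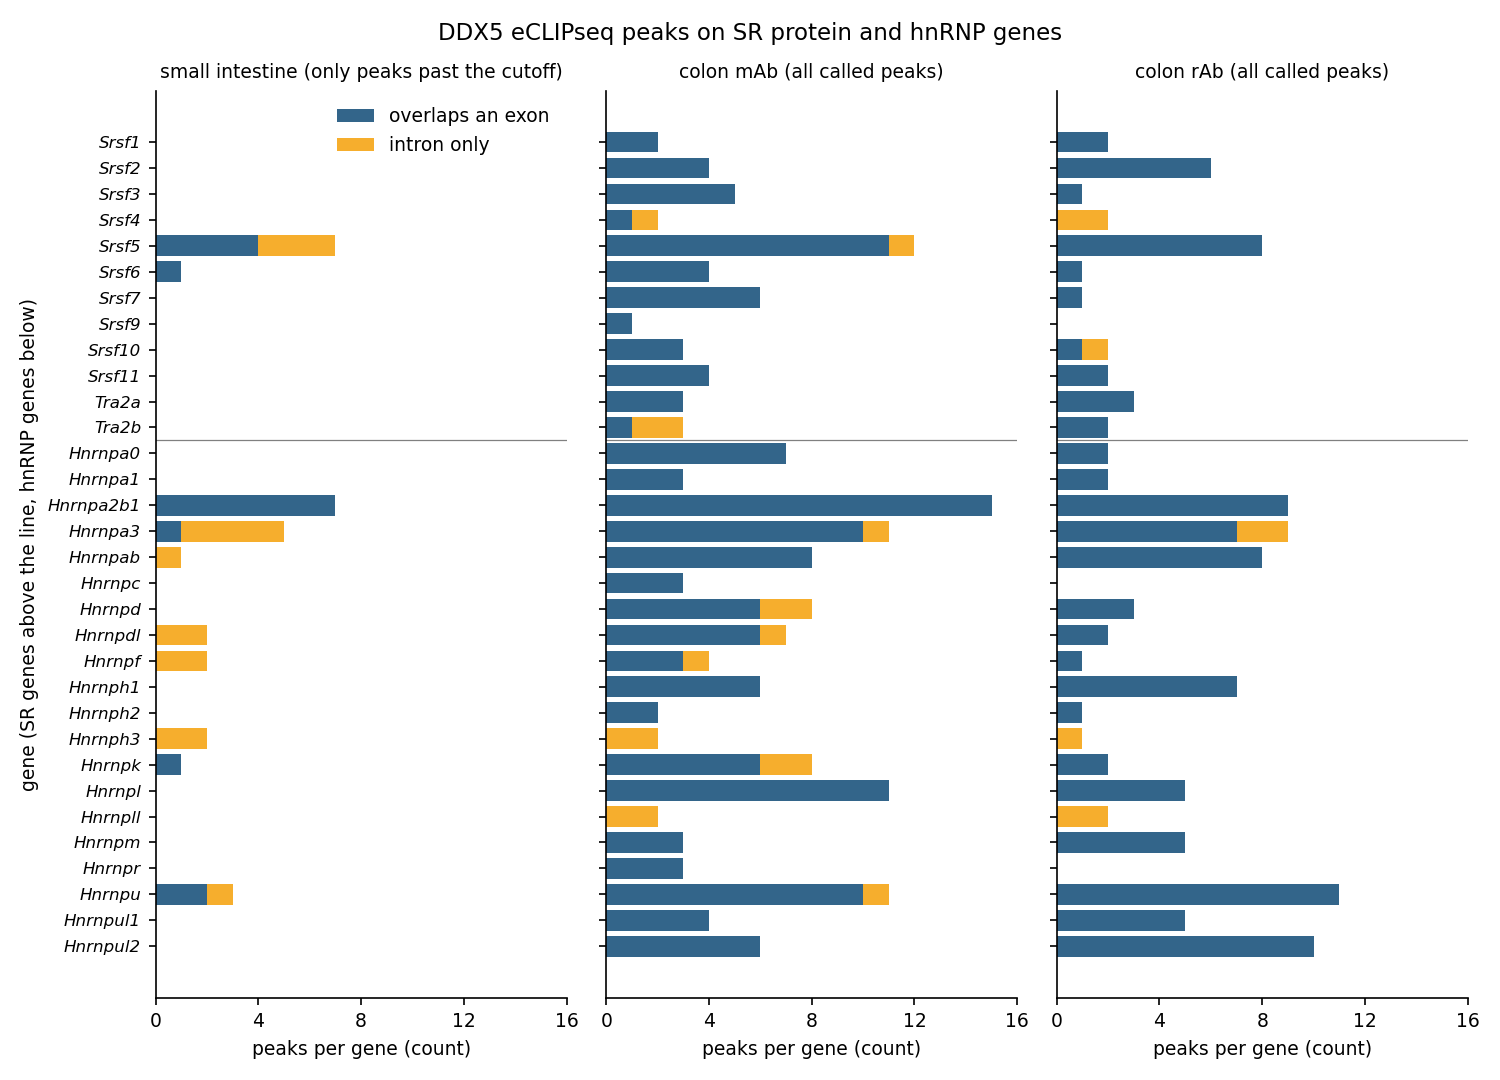
Number of peaks on each of the 12 SR genes and 20 hnRNP genes in the 3 lists, split into peaks that overlap an exon of any annotated transcript and peaks in introns only. The small intestine has sites on 10 genes, while all 32 genes have a called mAb peak and 29 an rAb peak.

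Among SR genes, Srsf5 held 7 of the 8 sites of the small intestine. Srsf5 encodes a small SR protein and lies at chr12:80945504-80950507 on the plus strand (ENSMUSG00000021134.17). Counted along its principal transcript of 8 exons, 4 sites lay in intron 1, with log2 folds of 4.10, 3.81, 5.01 and 5.27, and 3 lay side by side in intron 5, with 4.89, 5.53 and 4.96. The intron 5 sites and the last of intron 1 overlapped annotated transcripts that retain the intron, and no site touched an exon of a coding transcript. Srsf5 had 12 called mAb peaks, of which 8 were on exons of coding transcripts, and log2 folds ran from −0.66 to 2.15. Its 8 rAb peaks were all on exons of coding transcripts, from −0.22 to 3.24. None of the 20 colon peaks on Srsf5 passed the cutoff and none overlapped a small intestine site, although 2 mAb peaks lay in the same intron 5, with log2 folds of 1.15 and −0.02, and 1 in intron 1, with 2.15.

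Srsf6, another SR protein gene, had the eighth SR site, in intron 2 at chr2:162932234-162932285. Its log2 fold of 3.25 stood low in the small intestine list, at the 9.27th percentile of its peaks. The mAb list had a peak at the same place with a log2 fold of 2.84 from 29 IP and 6 input reads (7.14-fold, 2.91 to 21.05), and a −log10 p of 6.14. That peak missed the cutoff on the fold scale alone. A transcript that retains this intron is annotated there. The only rAb peak of Srsf6 had a log2 fold of 1.65.

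Srsf10, which encodes an SR protein known as a splicing repressor when dephosphorylated, held the only member site of the rAb list. The peak overlapped coding exon 3 and extended into intron sequence, and its log2 fold was 5.24, from 12 IP reads over 1 input read (37.8-fold, 5.59 to 1615). The −log10 p was 6.41. The mAb list had a called peak within the same interval with a log2 fold of 2.37, and Srsf10 had no site in the small intestine. The other rAb peak of this gene lay in intron 1 with a log2 fold of 3.24, which 3 IP reads over 1 input read give, and its −log10 p was 1.34.

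Tra2a and Tra2b encode SR-like activators of exons with GAA-rich enhancers. Tra2b had 2 rAb peaks with log2 folds of 3.98 in the 3′ UTR and 3.65 at the start of the gene, from 5 and 4 IP reads over 1 input read each, so neither reached a −log10 p of 3. At the 3′ UTR peak the mAb list gave 0.56. Tra2a had 3 rAb peaks between 1.65 and 2.65, and 3 mAb peaks between 0.56 and 1.56. The other SR genes, Srsf1, Srsf2, Srsf3, Srsf4, Srsf7, Srsf9 and Srsf11, had colon peaks only, with highest mAb log2 folds between −0.02 and 2.15. Of these, Srsf9 had no rAb peak, and Srsf4 had the highest rAb value, 3.24, from 3 IP reads over 1. Srsf2 had 6 rAb peaks, all exonic, at 2.03 peaks per kb of exon, with log2 folds from −0.02 to 1.65.

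Among hnRNP genes, the A/B family held the most sites. Hnrnpa2b1, at chr6:51460932-51469894 on the minus strand (ENSMUSG00000004980.16), had 7 sites in the small intestine, of which 6 lay in coding exons 7 to 10 of 12, with log2 folds from 3.38 to 4.13. The remaining site lay in intron 1, where a transcript that retains this intron is annotated, at 4.44, above all 6 coding sites. The gene had 15 called mAb peaks, the most of any member. The 12 on exons of coding transcripts ran from −2.06 to 0.73, and the peak at the intron 1 site had a log2 fold of 3.56 from 8 IP reads over 1 (11.8-fold, 1.59 to 525). Its 9 rAb peaks ran from −1.20 to 0.65. Further mAb peaks in introns 10 and 6, on transcripts that retain them, had 0.98 and 0.56, the latter below the highest coding peak. The intron 1 peak thus had a higher log2 fold than the coding peaks in the small intestine and mAb lists, and the rAb list had no peak there. For mAb its −log10 p was 2.39, and its interval reached below the 1.66-fold of the highest coding peak.

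Hnrnpa3, at chr2:75659261-75669407 on the plus strand (ENSMUSG00000059005.13), had 5 sites in the small intestine, 4 of them in intron 1 at 194 to 609 bases from the start of the principal transcript. Their log2 folds were 4.07, 4.49, 5.85 and 4.54, and that of the site in coding exon 7 was 4.72. The only member site of the mAb list lay in the same intron 1. Its log2 fold was 4.37, from 14 IP reads over 1 input read (20.7-fold, 3.15 to 875), and the −log10 p was 4.55. It overlapped the small intestine site of 4.49. The 10 exonic mAb peaks of the gene ran from −0.57 to 0.56. The rAb peak at this place had a log2 fold of 2.39 from 5 IP over 3 input reads, and the rAb peak at the exon 7 site had 2.46 from 7 over 4.

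The other genes of this family had few or no sites. Hnrnpab had a site in intron 2 at 4.71 in the small intestine and 8 exonic peaks in each colon list, at 2.88 peaks per kb of exon the densest member in both. Their log2 folds ran from −0.85 to 1.01 for mAb and from −0.87 to 1.54 for rAb. Hnrnpa0, a gene of 1 exon, had 2.61 mAb peaks per kb with no fold above 0.38, and Hnrnpa1, an exon repressor, had 3 mAb and 2 rAb peaks, none above 0.56. Genes of this family have processed copies elsewhere in the genome, and reads shared with such copies may be missing or misplaced in the lists.

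Genes of the F/H family, whose proteins bind runs of G, had sites in intron 1. Hnrnpf had 2 in the small intestine at log2 folds of 5.57 and 4.36, and Hnrnph3 had 2 at 4.42 and 3.69. A single mAb peak of 1.94, from 13 IP and 5 input reads, spanned parts of both Hnrnph3 sites, and an rAb peak of 2.24, from 3 IP and 2 input reads, overlapped the first Hnrnpf site. Hnrnph1 and Hnrnph2 had colon peaks only, and Hnrnph1 reached log2 folds of 0.56 (mAb) and 2.14 (rAb) and Hnrnph2 of 1.30 and 3.24. Hnrnpk, which binds C-rich RNA, had the highest site of all members in the small intestine, at chr13:58401561-58401664. Its log2 fold was 6.99 and its −log10 p 22.5. This interval is intron 1 of the principal transcript and 5′ UTR of another coding transcript. The mAb peak inside it had a log2 fold of 2.15, from 3 IP reads over 1 input read, and a neighbouring mAb peak of intron 1 had 2.89.

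Hnrnpu encodes a nuclear matrix scaffold protein. It had a site in intron 1 at 5.41 in the small intestine and 2 sites side by side in coding exon 10, at 3.03 and 4.57. At the intron site the mAb peak had a log2 fold of 3.15 from 6 IP reads over 1 (8.87-fold, 1.08 to 408) and a −log10 p of 1.70. The 10 exonic mAb peaks ran from −0.85 to 1.15. Hnrnpu had 11 rAb peaks, the most of any member there, all exonic and from −0.15 to 2.24. Its relatives Hnrnpul1 and Hnrnpul2 had no site, and Hnrnpul2 had 10 exonic rAb peaks from 0.07 to 2.24.

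The D family holds Hnrnpd, which encodes the AU-rich element binding protein AUF1, and Hnrnpdl. Hnrnpdl had 2 sites in intron 1 in the small intestine, at 3.20 and 3.50. Hnrnpd had no site, but its coding exon 1 carried a peak in both colon lists, with the highest −log10 p of any member for rAb and the second highest for mAb. The mAb peak there had a log2 fold of 2.02 from 33 IP and 12 input reads (4.07-fold, 2.05 to 8.64) and a −log10 p of 4.88. The rAb peak had 2.65 from 20 and 10 reads (6.29-fold, 2.81 to 15.1) and a −log10 p of 6.78. Hnrnpm, which binds GU-rich RNA, had an rAb peak in coding exon 14 at 2.65 from 10 and 5 reads (6.29-fold, 1.96 to 23.5) with a −log10 p of 3.23, and the mAb peak at this place had 0.91. Hnrnpl, a binder of CA repeats, had 11 exonic mAb peaks from −0.55 to 0.56. Hnrnpc, Hnrnpll and Hnrnpr had no site, and Hnrnpc and Hnrnpr had no rAb peak.

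**Figure D2:**
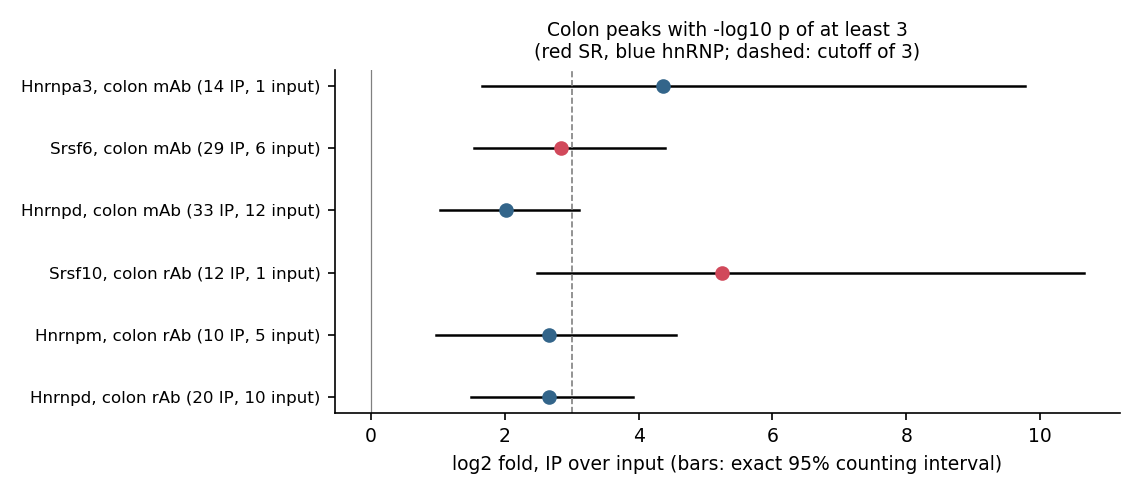
Log2 fold of the 6 member peaks of the colon lists with a −log10 p of at least 3, with exact 95% intervals from the IP and input reads given beside each name. Every interval lies above 0 and crosses the cutoff of 3, so reads at this depth do not place any of the 6 on 1 side of it.

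SR genes were then set beside hnRNP genes. In the small intestine the median log2 fold was 4.93 on SR genes (3.25 to 5.53, 8 sites) and 4.36 on hnRNP genes (3.53 to 4.57, 23 sites), beside 4.29 over all 1278 sites. For mAb it was 0.56 on SR genes (0.15 to 1.15, 49 peaks) and 0.05 on hnRNP genes (−0.17 to 0.15, 124 peaks), beside 1.15 over all called peaks. For rAb it was 1.65 on SR genes (1.07 to 2.07, 30 peaks) and 0.92 on hnRNP genes (0.65 to 1.17, 85 peaks), beside 2.24 over all. SR genes thus had the higher median in each list, but in the small intestine this rested on Srsf5, without which the 1 remaining SR site had 3.25. The intervals overlapped in the small intestine and for rAb and met at an end for mAb, and both groups had lower medians than the whole list in the colon. The share of peaks with a log2 fold above 0 was 67.3% on SR genes and 52.4% on hnRNP genes for mAb, beside 83.9% of all. For rAb it was 90.0% and 82.4%, beside 92.1% of all.

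Per length, hnRNP exons held more called peaks than SR exons in the colon, with overlapping intervals. The mAb list had 0.684 exonic peaks per kb on SR genes (0.499 to 0.916) and 0.829 on hnRNP genes (0.683 to 0.997), and the rAb list had 0.411 (0.271 to 0.597) and 0.592 (0.470 to 0.737). Intron density was lower, at 0.0453 and 0.0540 mAb peaks per kb and 0.0340 and 0.0225 rAb peaks per kb on SR and hnRNP genes. In the small intestine the exonic sites came to 0.0760 and 0.0814 per kb and the intronic sites to 0.0340 and 0.0540. With exons of coding transcripts only, the order of intron density turned in the mAb list, to 0.102 on SR and 0.0575 on hnRNP genes, and in the small intestine, to 0.0678 and 0.0498. The members with the most exonic mAb peaks per kb were Hnrnpab, Srsf5 at 2.76, Hnrnpa0, Hnrnpa2b1 at 2.28 and Hnrnpa3 at 1.85. Those with the most rAb peaks per kb were Hnrnpab, Srsf2, Srsf5 at 2.01, Hnrnpul2 at 1.41 and Hnrnpa2b1 at 1.37.

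Called peaks in the colon lay mainly on exons. For mAb, 91.8% of SR peaks (80.4 to 97.7%) and 90.3% of hnRNP peaks (83.7 to 94.9%) overlapped an exon of some annotated transcript, beside 74.9% of all peaks. For rAb these shares were 90.0% (73.5 to 97.9%) and 94.1% (86.8 to 98.1%), beside 84.1%. The small intestine list holds sites only, whereas the colon shares are over all called peaks. With that difference in selection, the small intestine shares were lower. They were 62.5% of SR sites (24.5 to 91.5%) and 47.8% of hnRNP sites (26.8 to 69.4%), beside 63.0% of all sites. Without Hnrnpa2b1 the hnRNP share was 25%, and 7 of the 8 SR sites were on Srsf5 alone. All 5 exonic SR sites lay in retained introns and none was coding, whereas 9 of the 11 exonic hnRNP sites were coding. With exons taken from coding transcripts only, 21 of the 31 small intestine sites (67.7%) lay outside exons, against 45.9% of all sites on coding genes. Of the colon member peaks, 27 of 173 (15.6%, mAb) and 9 of 115 (7.83%, rAb) did, against 29.2% and 21.2% of all such peaks.

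**Figure D3:**
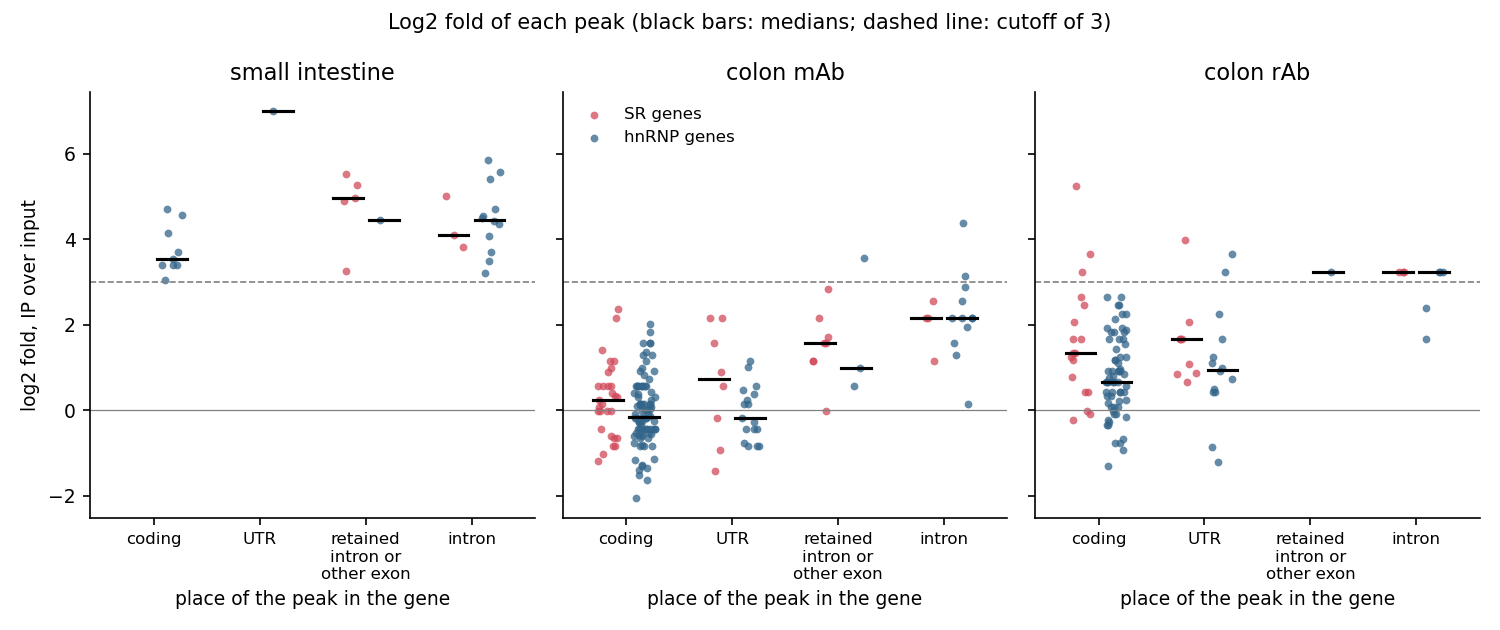
Log2 fold, IP over input, of each member peak by place in the gene, for SR and hnRNP genes in the 3 lists, with black bars for medians and a dashed line at the cutoff of 3. Peaks that overlap an exon of any transcript have colon medians of 0.08 (mAb) and 0.92 (rAb). On SR genes alone these medians are 0.56 and 1.33, and on hnRNP genes −0.11 and 0.78. Intron peaks lie higher, at medians of 2.15 and 3.24, while the small intestine list starts at the cutoff by selection.

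Folds were higher in introns than in exons in the colon lists. The median log2 fold of intronic member peaks was 2.15 for mAb (1.56 to 2.56, 16 peaks) and that of exonic ones 0.08 (−0.17 to 0.15, 157 peaks). Over all peaks of that list the medians were 2.15 and 1.05. For rAb the member medians were 3.24 (1.65 to 3.24, 8 peaks) and 0.92 (0.65 to 1.17, 107 peaks), and those over all peaks 3.24 and 1.65. When peaks that only partly overlap an exon were counted as intronic, the intron medians were 1.15 (mAb) and 1.82 (rAb). Without that change the intron medians equal the value that 3 IP reads over 1 input read give in each list, the most common value, and so rest on few reads. In the small intestine the medians were 4.42 (15 sites) and 4.29 (16 sites), with intervals that overlapped. The depth behind these values was low: the reads could be traced for 81 mAb and 94 rAb member peaks, with medians of 5 and 4 IP reads, and peaks whose −log10 p is listed as 0 could not be traced. These were 89 mAb and 21 rAb member peaks, of which 14 and 3 had log2 folds above 0, up to 0.24 and 0.07. The traces of mAb peaks on Hnrnph1 (429 IP over 627 input reads) and Hnrnpl (720 over 1056) may be multiples of fewer reads.

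By the single highest fold, most member genes followed the same order. Among members with mAb peaks both inside and outside exons of coding transcripts, the highest fold lay outside in 11 of 14 genes (78.6%), beside 629 of 1156 genes (54.4%) over the whole list. In the small intestine it lay outside in 3 of 3 members, Hnrnpa2b1, Hnrnpa3 and Hnrnpu, beside 55 of 74 genes (74.3%). For rAb it did so in 2 of 3, beside 216 of 431 (50.1%). The rAb exception was Srsf10. The mAb exceptions were Srsf10, with 2.37 inside against 1.56 outside, Hnrnpf, with 1.15 against 0.15, and Srsf3, where both were 2.15. Most of the 11 highest mAb folds outside rest on 1 input read. Of these 11, only those on Hnrnpa3 and Srsf6 reached a −log10 p of 3. On Hnrnpd the highest mAb fold outside was 2.15 from 3 IP reads over 1, and inside 2.02 from 33 over 12. By median, Hnrnpf and Srsf3 were higher outside for mAb. Hnrnpa3 in the small intestine was lower outside by median, at 4.52 against 4.72 for its 1 site inside. These shares describe few genes, and no test was made.

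Small intestine sites were then matched to colon peaks at the same place, by at least 1 shared base. A mAb peak overlapped 12 of the 31 member sites (38.7%, 21.9 to 57.8%), beside 35.5% of all sites, and an rAb peak overlapped 7 (22.6%, 9.59 to 41.1%), beside 19.0%. On SR genes 1 of 8 sites had a mAb peak and none had an rAb peak, and on hnRNP genes 11 and 7 of 23 did. At the 6 sites in introns or retained introns, on Srsf6, Hnrnpa2b1, Hnrnpa3, Hnrnph3 and Hnrnpu, the mAb log2 folds were 1.94 to 4.37. At the other 6 sites they were −1.51 to 2.15, with values of −0.81 at a pair of Hnrnpa2b1 sites, −0.76 and −1.51 at 2 more sites of that gene, −0.17 at Hnrnpa3 exon 7 and 2.15 at Hnrnpk. The 5 coding sites with a mAb peak, 4 on Hnrnpa2b1 and 1 on Hnrnpa3, thus had fewer normalised IP reads than input reads there, and the Hnrnpa2b1 sites in exon 8 had no mAb peak. At the sites with an rAb peak, the 3 in introns had 2.24 to 2.39 and the 4 coding sites −0.35 to 2.46. The ranges of intron and exon sites overlapped for rAb. For mAb they overlapped only through Hnrnpk, whose value was above that of Hnrnph3. Its small intestine site touched a 5′ UTR, but the mAb peak there lay in the intron only. The 5 coding sites had mAb values of −1.51 to −0.17, below those of all intron sites with a mAb peak.

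**Figure D4:**
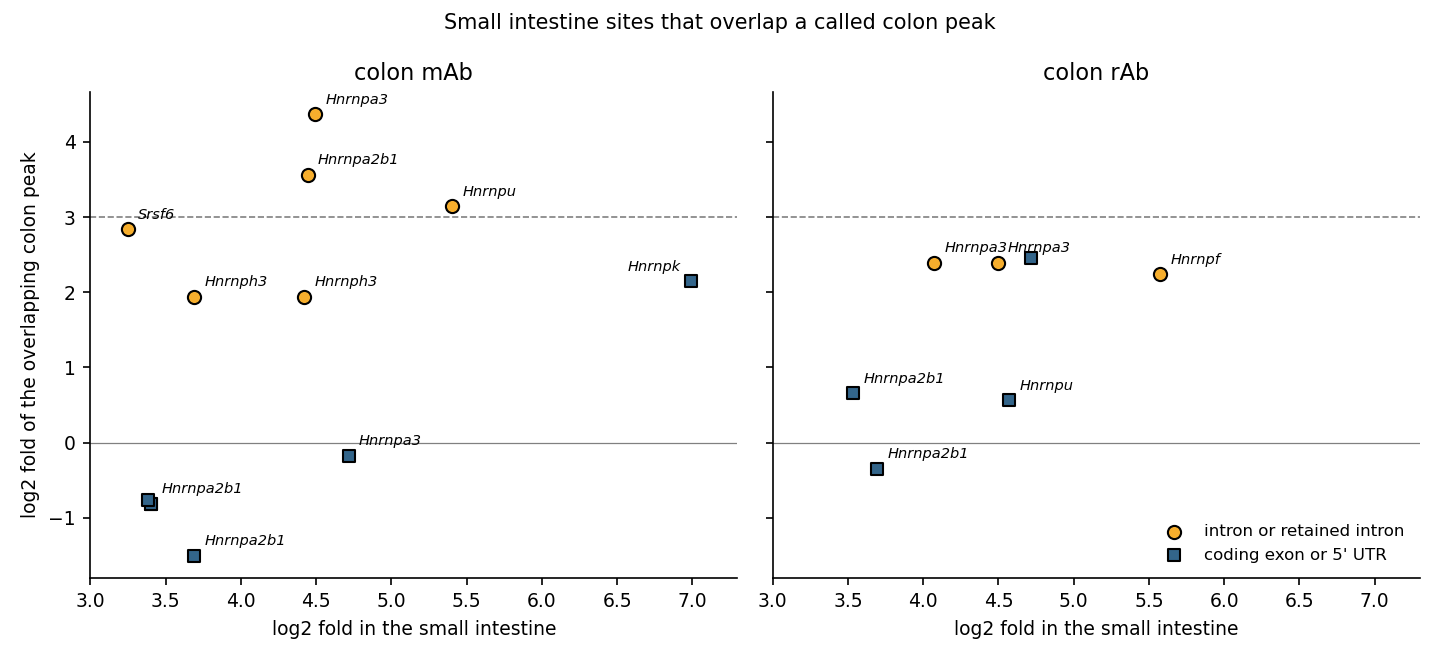
Log2 fold of each colon peak that overlaps a small intestine site on a member gene, against the log2 fold of that site, with the mAb list on the left and the rAb list on the right. For mAb the intron sites lie at 1.94 to 4.37 and the exon sites at −1.51 to 2.15, and for rAb at 2.24 to 2.39 and −0.35 to 2.46. The ranges overlap for rAb. For mAb they overlap only through Hnrnpk at 2.15, whose mAb peak lies in the intron only.

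Between the colon lists, 58 of 173 mAb member peaks (33.5%, 26.5 to 41.1%) overlapped an rAb peak, beside 18.2% of all mAb peaks. In turn 58 of 115 rAb member peaks (50.4%, 41.0 to 59.9%) overlapped a mAb peak, beside 31.98% of all. Neither colon site was a site in the other list. Of the 60 pairs, 2 lay in introns, on Hnrnpa3 and Hnrnph3, and the rAb log2 fold was the higher one in 49. The whole rAb list also had the higher folds, with a median of 2.24 over all peaks against 1.15 for mAb. Folds of the pairs were low, with medians of 0.13 (mAb) and 0.88 (rAb), and 27 of the 60 rAb values were above 1.

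Many sites of the small intestine lay near the start of their genes. Of the 31 sites, 18 (58.1%, 39.1 to 75.5%) lay within 1000 bases of the start of the principal transcript. The share of all sites on coding genes was 39.1%, at the lower end of that interval. A window of 1000 bases also covers more of a short gene, such as Srsf5 at 5004 bases, and gene length was not accounted for. Of the 22 in an intron of the principal transcript, 17 were in intron 1 (77.3%, 54.6 to 92.2%), beside 73.1% of all, so this share was near that of the list. On SR genes 4 of 8 were in intron 1 and on hnRNP genes 13 of 14, the other being the Hnrnpab site in intron 2. In the colon, 16 of 31 mAb member peaks in such introns were in intron 1 (51.6%, 33.1 to 69.8%), beside 40.1% of all, and 6 of 9 rAb peaks were, beside 31.9%.

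**Figure D5:**
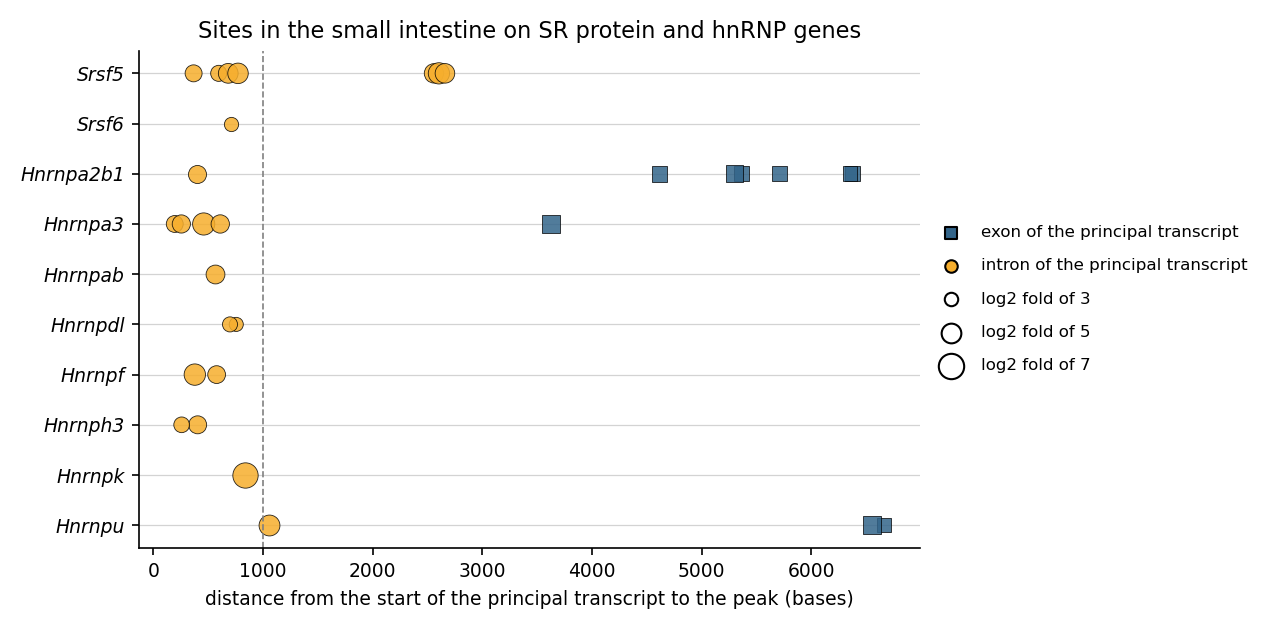
Distance in bases from the start of the principal transcript to each of the 31 small intestine sites, by gene, with circles for introns and squares for exons of that transcript and symbol size for log2 fold. Of the 31 sites, 18 lie before the dashed line at 1000 bases, and the exon sites are on Hnrnpa2b1, Hnrnpa3 and Hnrnpu only.

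The sequence at the sites was rich in G and C. Windows of 60 bases centred on the small intestine member sites had a median GC content of 70.0%, beside 58.3% over all sites, and 61.7% on SR and 71.7% on hnRNP genes. The letters GGGG, searched on the sense strand, were found in 19 of 31 windows (61.3%), in 3 of 8 SR and 16 of 23 hnRNP windows, beside 43.2% of all. TAGGG, the core bound by hnRNP A1, was in 3 of 31 windows (9.68%), beside 4.07% of all, and GAAGAA, a motif of exon enhancers, in none, beside 8.92% of all. The coding site of Hnrnpu at 4.57, which is longer than the window, held GAAGAA outside it. In the colon GGGG was in 31.2% of mAb and 26.1% of rAb member windows, beside 27.0% and 24.2% of all, and the member windows had a median GC content of 53.3% in both, beside 55.0% of all. Matches are a description of letters and not of binding by these proteins. Of the member sites, 67.7% lay outside exons of coding transcripts, against 45.9% of all sites on coding genes. That difference in place was not accounted for in these shares.

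Of 45 other splicing factor genes, 11 had a site in the small intestine, with 23 sites in all, beside 10 of the 32 members. Among all genes with a called mAb peak, 7.43% had a site in the small intestine. Called peaks were found on 39 of the 45 genes for mAb, where 1 had a site, beside 2.64% of all genes with a called peak. For rAb they were found on 37, where none had a site, beside 3.17%. Among kinases of SR proteins, Clk1 had a site in coding exon 2 at 3.51, the only 1 of 6 genes. SR-related proteins had 5 of 10 genes with 15 sites: Luc7l3, Rbm25, Rbm39, Son and the speckle protein gene Srrm2. Rbm25 had 4, all coding, up to 5.65, and Son had 1 of 5.61 in an exon annotated in a decay transcript. Of the core spliceosome, Snrnp70, of the U1 particle, had 2 coding sites, at 4.05 and 3.43, and U2af2, which recognises the polypyrimidine tract, had 1 at 3.38. Of other nuclear RNA-binding proteins, Ptbp3, Raly and Syncrip had sites, with Ptbp3 at 5.40 and Raly at 3.59 in intron 1. None of 9 tissue-regulated splicing factors had a site in the small intestine, and Mbnl2 had the 1 site of the mAb list, at 3.26 in intron 7.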

How the data were processed

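CLIPper peaks on GRCm38 were used as deposited. The authors trimmed reads, aligned them and called peaks on the IP library (cutadapt 1.9.1, STAR 2.4.0i and SAMtools 1.4.1 per the submitters' processing notes). The deposited log2 values are the authors' depth-normalised IP over input fold, and the deposited −log10 p-values are capped at 400 and listed as 0 for peaks with a log2 fold below 0 or just above it. The small intestine list merges 2 replicates by Irreproducible Discovery Rate and holds only peaks above 3 on both scales. The names of the colon lists mark replicates 1 and 2 as merged.

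Peaks were assigned to genes and exons of GENCODE M21 by at least 1 base on the strand, with coding sequence first, then UTRs, exons of decay, retained intron and other transcripts, and introns within 500 bases of an exon or beyond. Whole reads were traced from log2 fold and −log10 p for 99.2% of 13011 mAb and 99.6% of 8282 rAb peaks, taking the commonest fold as 3 IP reads over 1 input read, with a tolerance of 1% of the p. The input held 1.48 and 3.15 times the IP reads, and an input of 1 may be a pseudocount. Library totals were not given in the sources used here, so depth is known only as these reads. Tracing was tested on simulated data, and some traced pairs may be multiples of fewer reads. Intervals are exact (Clopper-Pearson, Poisson, order statistic or conditional binomial). Python 3.11.15, pandas 2.3.3, NumPy 2.4.6, SciPy 1.17.1, pysam 0.24.0 and matplotlib 3.10.9 were used.

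Members and lists were chosen with earlier results of these data known. Genes named with values were those with a site, the 5 with the most called peaks or exonic peaks per kb in a list, and up to 5 with the highest fold among colon peaks with a −log10 p of at least 3. Other values were added after they were seen, to account for all members. A list of 2 value columns matched no sample and was not used. Qki was looked up under its annotated symbol Qk. A gene of the list of other splicing factors is not reported here and was left out of its counts.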

Additional observations from a re-analysis of the deposited data

How the results depend on the processing

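No paired analysis was possible because the only samples with shared numbers, the CLIP and input libraries of the small intestine, reach the deposited table as 1 merged list, and for the same reason no library could be left out. Of 228 alternatives over 44 results, 191 stayed within 1.5 times (counts) or within the main interval, and 37 moved. Some orders and signs near 0 turned all the same: the SR median of the small intestine was 3.25 without Srsf5, below that of hnRNP genes, the exonic mAb median was −0.02 with coding transcripts, from 0.08, and intron density with coding transcripts was 0.102 (SR) and 0.0575 (hnRNP) for mAb and 0.0678 and 0.0498 in the small intestine. Member sites in the small intestine fell from 31 to 20 at a log2 fold of 4. In the mAb list sites, and genes with one, went from 1 to 0 at a −log10 p of 5 (0% of hnRNP peaks) and to 3 at a log2 fold of 1 or at an adjusted p (Benjamini-Hochberg) under 0.05. In the rAb list both went to 3 under these last settings. The exonic share of small intestine SR sites was 0% with exons of coding transcripts only, or with the region of the authors' table, and 100% without Srsf5, which leaves 1 site, and their exonic density was then 0 per kb with coding transcripts. That of hnRNP sites was 26.1% with whole intervals in an exon and 25% without Hnrnpa2b1. In the mAb list the exonic share of SR peaks was 75.5% with coding transcripts and 100% at a −log10 p of at least 3, and that of hnRNP peaks 76.6% with whole intervals, 50% at that p and 81.5% at a log2 fold above 0. In the rAb list it was 100% for SR and hnRNP peaks at that p, and 77.6% for hnRNP peaks with whole intervals. Those shares at that p rest on 1 or 2 peaks each. With coding transcripts, exonic peaks per kb were 1.02 (SR) and 1.13 (hnRNP) in the mAb list and 0.748 and 0.821 in the rAb list. With whole intervals, the intron median fell to 1.15 (mAb) and 1.82 (rAb), and intronic peaks per kb of hnRNP genes rose to 0.131 and 0.0856. The overlap of member peaks between the colon lists fell to 20.8% (mAb) and 31.3% (rAb) at 50% reciprocal overlap. With a log2 fold of at least 1 in both it fell to 21.4% and 17.9%. Shares over all peaks were not taken at these settings, so the members cannot be set beside the whole lists there. The cause of these moves was not tested, beyond the fewer peaks or bases that each setting keeps. The depth limits the folds of single colon peaks: with an input of 1 read taken as 0, the lower bounds stayed above 1, within the first interval.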
